A study of Mus musculus with 14 samples.

Results

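The clustered histone genes are the genes whose GENCODE M21 symbol starts with Hist1h, Hist2h, Hist3h or Hist4h, and 68 of the 49583 genes in the deposited table met that rule. They comprise 20 H2A, 17 H2B, 12 H3 and 13 H4 genes, the core histones around which DNA is wound, and 6 genes of the linker histone H1, which the same prefix takes in. On mouse chromosome 13 the Hist1 genes form a block of 23 genes below 23 Mb, called distal here for its distance from the main block, and the main block of 30 genes above 23 Mb, called proximal, with 1 further gene elsewhere. The Hist2 genes (10) lie on chromosome 3, the Hist3 genes (3) on chromosome 11 and the single Hist4 gene on chromosome 6. M21 annotates 65 of the 68 as protein-coding and 3 as pseudogenes, and 63 have a single exon.

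Most clustered histone genes are replication-dependent: they are transcribed mainly in S phase, when new DNA has to be packed. Their mRNAs carry no introns and usually no poly(A) tail, ending instead just past a short stem-loop that is bound by the stem-loop binding protein SLBP, which guides their processing, translation and decay. A subset of these genes is also known to give polyadenylated mRNAs, above all in cells that leave the cell cycle. Erythroblasts go on dividing while they fill with haemoglobin and then condense the nucleus before it is expelled.

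The study measured RNA by sequencing in 7 groups of 2 samples of sorted cells, all from C57BL/6 mice of wild-type genotype, with a stated purity above 98%. Spleen Ter cells (Ter-119+ CD45- Lin-) and their CD45+ Ter-119- control cells came from the spleen of mice bearing a tumour that the labels do not name. Liver Ter cells passed the same gate in embryonic liver at E14.5. The bone marrow gave haematopoietic stem cells (HSC; c-Kit+ Sca-1+ Lin-), common lymphoid progenitors (CLP; c-Kit+ Sca-1+ IL-7R+ Lin-), megakaryocyte-erythroid progenitors (MEP; labelled CD34+) and common myeloid progenitors (CMP; labelled CD34-), the last pair sharing the rest of their gate (c-Kit+ FcγRlo Lin- IL-7R- Sca-1-). Ter-119 is the surface antigen of maturing red cells. Adult ages are not given. Whether the 2 samples of each group are separate animals is not stated either, and p-values therefore measure the spread between these samples alone, which may be technical.

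The table holds 1 mean FPKM (fragments per kilobase of gene length, scaled to library depth) per gene and group. In 4 of the columns (MEP, CMP and both Ter groups) the 2 libraries behind each mean could be worked back from its digits. The deeper library of a group is called A and the other B, because the replicate numbers cannot be assigned, and they hold 13413530.5 to 28537889 fragments each by the depth found. In the control, HSC and CLP columns no libraries were recovered, so those values have no error and no test, and the 2 sets of columns were compared only within themselves. Some columns went against their labels: Cd34, the antigen that was to separate the marrow gates, stood at 0.111 and 0.0273 FPKM in the libraries labelled MEP (CD34+) and at 29.3 and 30.1 FPKM in those labelled CMP (CD34-). The MEP column was led by neutrophil genes (S100a9 mean 84794 FPKM) and had 1.18 and 0.674 FPKM of the erythroid factor Gata1, so its cells are called MEP-labelled here. The 2 spleen Ter libraries stood apart from each other. Their 12 erythroid markers summed to 667 FPKM in A and 47.1 FPKM in B, against a mean of 8032 FPKM in liver Ter. All 8 B cell markers were above 1 FPKM in both spleen Ter libraries (sums of 1063 and 1417 FPKM) and none in liver Ter (1.85 and 1.80 FPKM). All 8 T cell markers were above 1 FPKM in spleen Ter cells (459 and 580 FPKM) and 1 of 8 in liver Ter (2.70 and 2.78 FPKM). Macrophage markers summed to 171 FPKM in spleen Ter A and 1083 FPKM in spleen Ter B, against 13.5 and 11.9 FPKM in liver Ter. The 8 neutrophil markers, all above 1 FPKM in the spleen Ter column, had a mean sum of 24530 FPKM there, against 279 FPKM in liver Ter. The part of these other cells in the results was not tested, and in sorted bulk RNA fewer cells of a type and less RNA per cell cannot be told apart.

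The sequences that mark this gene family are shown first for the members on which the results turn. The 3′ stem-loop was found in the annotated transcripts of 42 members, most often as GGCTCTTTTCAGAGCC (23 members) or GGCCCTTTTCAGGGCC (7 members). Each line below gives 30 bases of GRCm38 on the gene's own strand, with the stem-loop in capitals.
Hist1h4d, chr13:23581943-23581972, plus strand: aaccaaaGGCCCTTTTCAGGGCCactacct
Hist1h4i, chr13:22040959-22040988, minus strand: acttaaaGGCCCTTTTTAGGGCCaccacaa
Hist1h1e, chr13:23621775-23621804, minus strand: acccaaaGGCTCTTTTCAGAGCCacccaca
Hist1h1c, chr13:23739505-23739534, plus strand: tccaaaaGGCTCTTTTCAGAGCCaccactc
Hist1h2ae, chr13:23570661-23570690, minus strand: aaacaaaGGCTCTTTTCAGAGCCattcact
Hist1h1e, Hist1h1c and Hist1h2ae carry the same loop. Whether the loop bears on their levels was not tested.

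Promoters were taken from RefSeq (GRCm38.p6) as the 250 bases before the gene start, and 60 of the 68 members had one. The letters CCAAT, on either strand, stood in 49 of these 60 promoters (81.7%), against 34.5% of all 27025 promoters of the same length. The letters TATAAA, on either strand, stood in 29 (48.3%), against 12.97% of all promoters. Below are an H4 and an H1 gene that were higher in spleen Ter than in liver Ter, each beside one of the same class that was lower, with CCAAT and TATAAA (or their complements ATTGG and TTTATA) in capitals.
Hist1h4d, chr13:23581318-23581567, plus strand: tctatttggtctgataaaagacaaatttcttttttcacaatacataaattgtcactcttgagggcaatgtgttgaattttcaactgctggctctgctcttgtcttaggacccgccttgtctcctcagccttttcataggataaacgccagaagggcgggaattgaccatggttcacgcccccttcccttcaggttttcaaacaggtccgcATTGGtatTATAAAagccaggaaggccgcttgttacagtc
Hist1h4i, chr13:22041363-22041612, minus strand: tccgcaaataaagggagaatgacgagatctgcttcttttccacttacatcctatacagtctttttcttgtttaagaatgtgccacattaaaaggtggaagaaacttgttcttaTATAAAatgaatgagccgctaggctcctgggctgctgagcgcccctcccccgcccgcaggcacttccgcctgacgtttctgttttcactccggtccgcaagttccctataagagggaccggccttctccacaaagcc
Hist1h1e, chr13:23622559-23622808, minus strand: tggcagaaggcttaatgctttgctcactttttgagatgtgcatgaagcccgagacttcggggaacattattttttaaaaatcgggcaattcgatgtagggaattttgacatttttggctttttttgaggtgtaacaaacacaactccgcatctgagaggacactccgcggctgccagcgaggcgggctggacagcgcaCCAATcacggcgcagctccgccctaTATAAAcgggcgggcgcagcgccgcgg
Hist1h1c, chr13:23738557-23738806, plus strand: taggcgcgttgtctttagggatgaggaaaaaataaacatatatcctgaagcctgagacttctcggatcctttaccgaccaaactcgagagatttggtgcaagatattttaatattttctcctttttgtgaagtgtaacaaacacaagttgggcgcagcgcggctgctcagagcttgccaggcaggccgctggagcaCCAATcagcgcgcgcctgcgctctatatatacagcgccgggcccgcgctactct
Both H1 promoters held CCAAT near the gene start, Hist1h4d held its complement, and no CCAAT stood in these letters of Hist1h4i. A match of letters is a description and not evidence of binding.

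Summed over the clustered histone genes, expression was highest in liver Ter cells within its set of columns. The sum of mean FPKM was 354 in spleen Ter cells, 819.6 in liver Ter, 114 in MEP-labelled cells and 160.4 in CMP-labelled cells. By library it was 500.0 and 208.5 FPKM in spleen Ter cells, 806 and 833 FPKM in liver Ter, 106 and 123 FPKM in MEP-labelled cells, and 173 and 148 FPKM in CMP-labelled cells. Both liver Ter libraries lay above all others and the spleen Ter libraries above all 4 marrow libraries, while the 2 spleen Ter libraries were over 2-fold apart. Without Hist1h4d, Hist1h1e and Hist1h2ae, spleen Ter library B (144 FPKM) lay below CMP library A (169 FPKM). The sum in spleen Ter was 0.432 times that in liver Ter, and that in liver Ter was 7.16 times that of MEP-labelled and 5.11 times that of CMP-labelled cells. These sums rest on 5226 and 2741 fragments in spleen Ter cells, 25110 and 15798 in liver Ter, 2416 and 2149 in MEP-labelled and 2075 and 1603 in CMP-labelled cells. As a share of all FPKM the members held 0.0942% in spleen Ter cells, 0.243% in liver Ter, 0.0293% in MEP-labelled and 0.0592% in CMP-labelled cells. In the other set the sum was 427 FPKM in HSC and 588 FPKM in CLP, against 159 FPKM in control spleen cells, or 2.68 and 3.70 times the control.

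**Figure D1:**
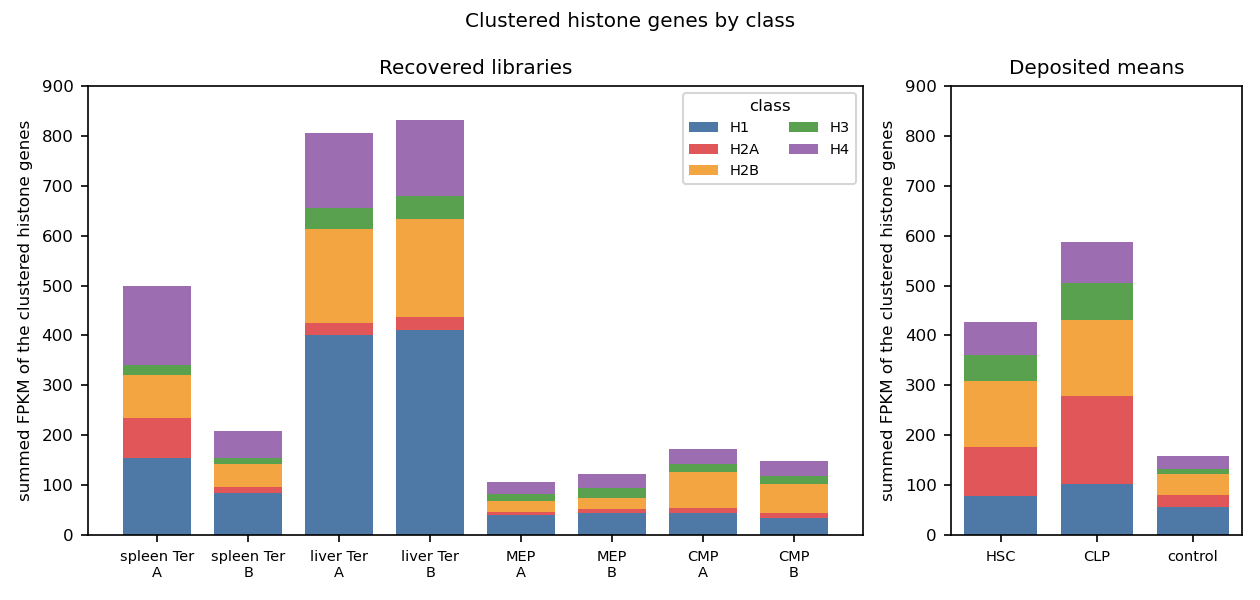
Summed FPKM of the clustered histone genes (vertical axis), stacked by class (H1, H2A, H2B, H3, H4), with 1 bar per recovered library on the left and 1 bar per deposited mean for HSC, CLP and control on the right; the 2 panels were not compared. The liver Ter bars are the tallest on the left at 806 and 833 FPKM, with H1 as their largest class, and the 2 spleen Ter bars reach 500.0 and 208.5 FPKM.

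The classes made up different shares of these sums. Linker H1 genes held 33.7% of the sum in spleen Ter cells, 49.6% in liver Ter, 37.3% in MEP-labelled and 24.3% in CMP-labelled cells. H2B genes held 18.8% in spleen Ter cells, 23.6% in liver Ter, 20.2% in MEP-labelled and 40.4% in CMP-labelled cells, and of these 4 groups led the sum only in the CMP-labelled one. H2A genes held 13.1% in spleen Ter, but 16.1% in its library A and 5.88% in B, against 2.90% in liver Ter. H4 genes held 30.1% in spleen Ter against 18.5% in liver Ter, and H3 genes 4.38% in spleen Ter against 5.37% in liver Ter. A single gene, Hist1h4d, had 78.7 of the 106.7 FPKM of H4 genes in spleen Ter, against 9.37 of 151.7 FPKM in liver Ter. H2A genes held 23.3% of the sum in HSC and 30.1% in CLP, against 14.7% in the control. Several H2A genes share nearly all their sequence with other genes, so these H2A shares are uncertain. Among them, Hist1h2ap and Hist1h2ao had 11.6 and 10.6 of the 99.2 FPKM of H2A genes in HSC, and Hist2h2aa1 11.2 FPKM. In CLP Hist1h2ap and Hist1h2ao had 30.3 and 25.4 of 176.85 FPKM. H1 genes held 18.3% of the sum in HSC and 17.4% in CLP, against 35.4% in the control. By position, the proximal block held 86.1% and 79.9% of the sum in the spleen Ter libraries, against 74.7% and 75.2% in liver Ter. The distal block held 9.47% and 10.2% in spleen Ter, against 20.3% and 20.6% in liver Ter. These block shares depend on 3 proximal genes, Hist1h4d, Hist1h1e and Hist1h2ae. Together these held 52.8% and 30.8% of the sum in the spleen Ter libraries, against 2.21% and 2.03% in liver Ter.

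The columns differed in how many genes carried the sum. At least 50% of the sum came from 3 members in spleen Ter cells, 2 in liver Ter, 5 in MEP-labelled and 4 in CMP-labelled cells, and from 11 in HSC, 13 in CLP and 4 in the control. In liver Ter a single gene, the linker histone H1.2 gene Hist1h1c, held 45.7% of the sum at a mean of 375 FPKM, followed by the H2B gene Hist1h2bc (13.4%) and the H4 gene Hist1h4i (12.2%). In spleen Ter the H4 gene Hist1h4d led with a mean of 78.7 FPKM (22.2%), followed by the linker histone gene Hist1h1e at 51.6 FPKM and Hist1h1c at 49.0 FPKM. Hist1h1c also led in MEP-labelled cells (31.8 FPKM), HSC (48.9 FPKM), CLP (41.8 FPKM) and the control (48.0 FPKM), whereas Hist1h2bc led in CMP-labelled cells (27.7 FPKM). At the low end 4 members were listed at 0 in all 7 columns. At least 1 FPKM was reached by 32 members in spleen Ter cells, 45 in liver Ter, 27 in MEP-labelled cells, 31 in CMP-labelled cells, 56 in HSC, 58 in CLP and 25 in the control.

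**Figure D2:**
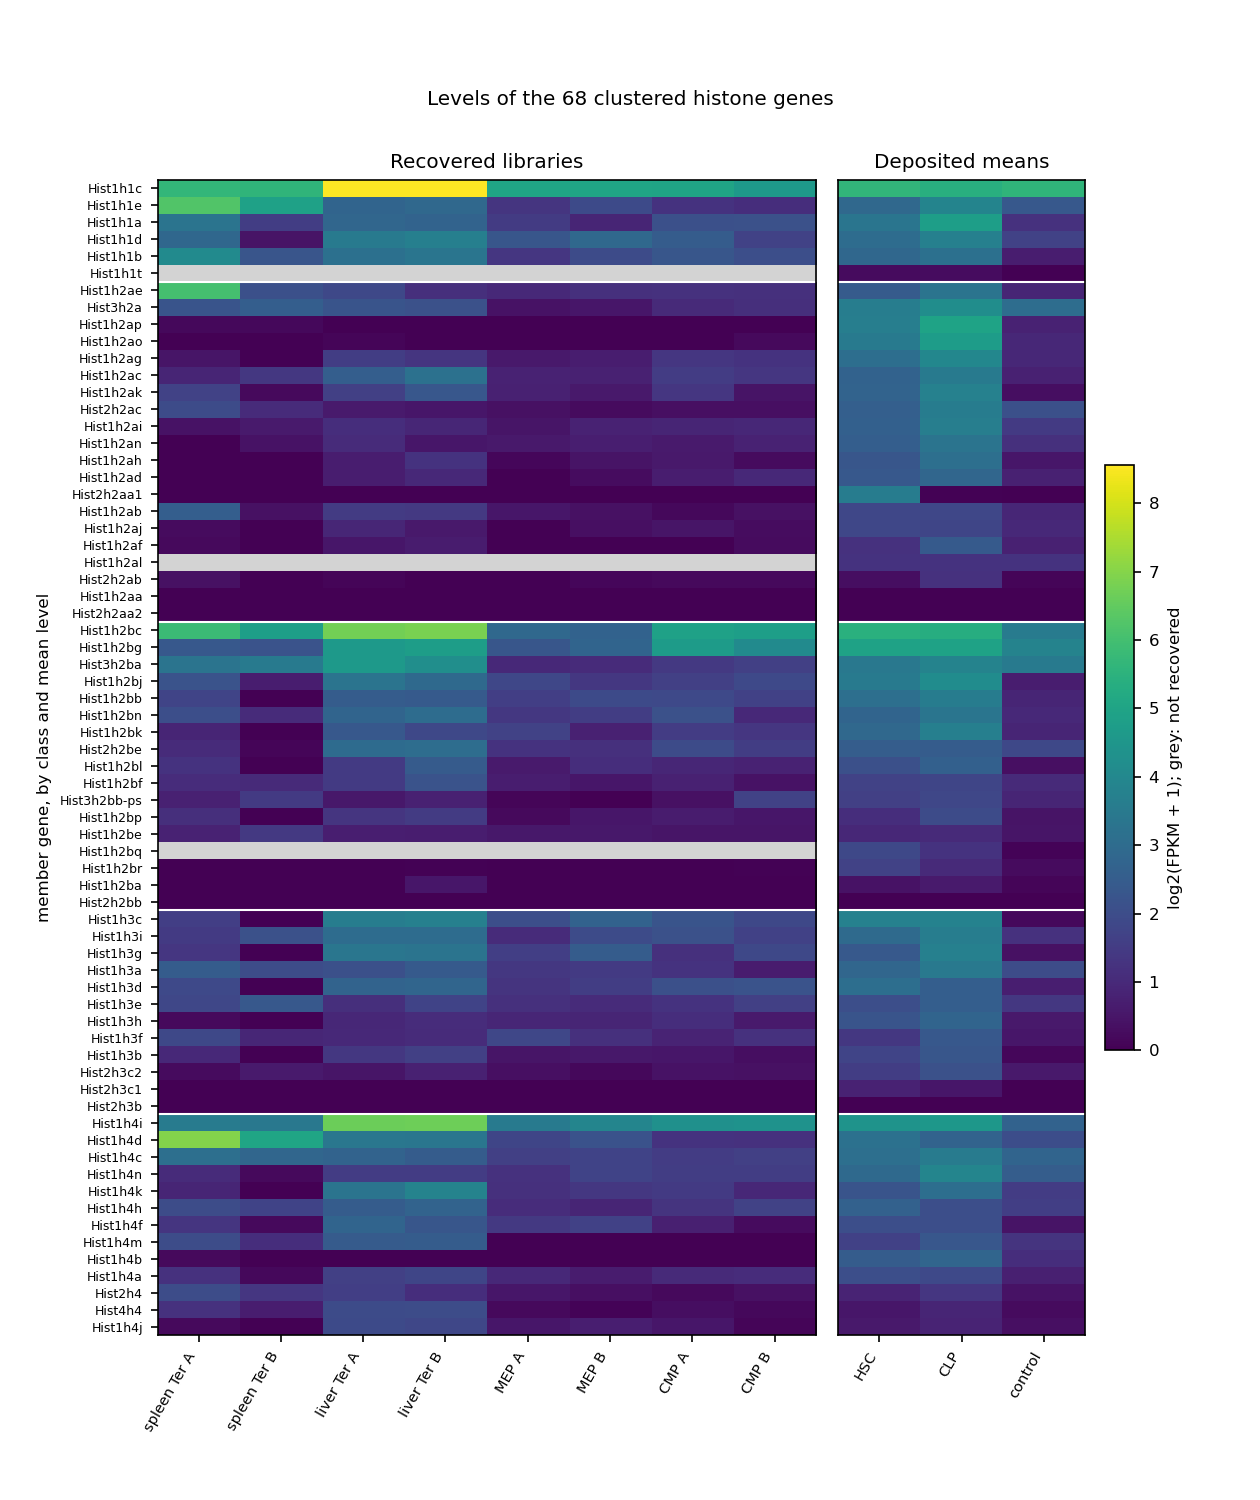
Level of each of the 68 clustered histone genes (rows, grouped by class and ordered by mean level) as log2(FPKM + 1), in colour, in the recovered libraries on the left and the deposited means on the right; the 3 grey rows were not recovered by library. Hist1h1c is bright throughout, Hist1h4d and Hist1h1e are brightest in spleen Ter, and HSC and CLP show moderate values across many more members than the control.

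Setting spleen Ter against liver Ter asks how histone expression differs between Ter-119+ cells of a tumour-bearing adult and those of the fetal liver. Of the members tested, 34 were lower and 11 higher in spleen Ter, called or not. Some of the 34, such as Hist1h4j and Hist4h4, reached 1 FPKM in 2 libraries only with those of liver Ter. The called rises were in 2 genes of the proximal block, Hist1h4d and Hist1h1e. Of the 45 members that could be tested (20 of the others were too low, with means of at most 1.23 FPKM, and 3 were not recovered), 2 rose and 22 fell in spleen Ter. A member was counted where limma gave a Benjamini-Hochberg adjusted p under 0.05 over all 12830 genes tested and a change of at least 2-fold on the log2(FPKM + 1) scale. By the same rule 42.8% of all genes tested rose and 11.6% fell, and the median log2 fold change was -1.02 over the members and 0.79 over all genes. Of the H2B genes 9 of 12 fell, of the H3 genes 5 of 9, of the H2A genes 2 of 7 and of the H4 genes 5 of 12, while 1 H4 gene rose. Of the 5 H1 genes 1 rose and 1 fell. Leaving out spleen Ter library A gave 2 higher and 29 lower, and leaving out B gave 4 higher and 13 lower. Scaling the libraries by median of ratios, which moved the median of all genes to 0.08, gave 1 higher and 35 lower, because Hist1h4d then lost its call. The shares of all genes called in these other settings are not shown here.

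The largest falls were in genes that liver Ter expressed strongly. Hist1h4i, an H4 gene of the distal block, had 10.9 and 9.84 FPKM in spleen Ter against 99.9 and 100.7 FPKM in liver Ter. The libraries of each group were close together and far from the other group, with a log2 fold change of -3.16 (SE 0.17, limma adjusted p = 1.5e-05). Hist1h1c had 49.8 and 48.2 FPKM in spleen Ter against 371 and 378 FPKM in liver Ter, a log2 fold change of -2.91 (SE 0.15, limma adjusted p = 1.4e-05). It was also alike in both spleen Ter libraries, unlike the genes that rose. Hist1h4k, a further H4 gene, had 0.849 and 0 FPKM in spleen Ter against 8.87 and 13.3 FPKM in liver Ter (log2 fold change -3.13, SE 0.35, limma adjusted p = 0.0003). The H3 gene Hist1h3c had 2.03 and 0 FPKM in spleen Ter, below the 11.3 and 12.2 FPKM of liver Ter. Among H2B genes, Hist1h2bg had 4.16 and 3.60 FPKM in spleen Ter against 24.02 and 26.5 FPKM in liver Ter. Hist1h2bc had 56.7 and 27.1 FPKM in spleen Ter against 106 and 113 FPKM in liver Ter, and both it and Hist1h2bg fell (log2 fold changes of -1.46 and -2.43). Hist3h2ba, the H2B gene of the Hist3 cluster, had 8.84 and 10.2 FPKM in spleen Ter against 23.3 and 18.0 FPKM in liver Ter, just past the 2-fold line (log2 fold change -1.03). The linker gene Hist1h1d, with 6.23 and 0.370 FPKM in spleen Ter against 10.3 and 12.1 FPKM in liver Ter, was just outside the call (log2 fold change -1.95, limma adjusted p = 0.05004). Hist1h1a had 8.87 and 1.93 FPKM in spleen Ter against 6.17 and 5.60 FPKM in liver Ter and was not called.

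Hist1h1e encodes the linker histone H1.4, and Hist1h4d encodes histone H4; their stem-loops and promoters are shown above. Hist1h1e had 74.2 and 29.0 FPKM in spleen Ter against 5.81 and 6.40 FPKM in liver Ter, and rose with a log2 fold change of 2.74 (SE 0.43, limma adjusted p = 0.0013). Hist1h4d had 125 and 31.8 FPKM in spleen Ter against 9.45 and 9.29 FPKM in liver Ter, and rose with a log2 fold change of 2.64 (SE 0.56, limma adjusted p = 0.0054). In each case both spleen Ter libraries lay above both liver Ter libraries, and spleen Ter library A lay above B. Without library A the log2 fold changes were 2.08 for Hist1h1e and 1.66 for Hist1h4d. The H2A gene Hist1h2ae had 64.3 and 3.29 FPKM in spleen Ter (447 and 22 fragments) against 2.59 and 1.24 FPKM in liver Ter (34 and 10 fragments). Its spleen Ter libraries also lay above those of liver Ter, but their spread left it uncalled (log2 fold change 2.56, SE 1.11, limma adjusted p = 0.0781).

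**Figure D3:**
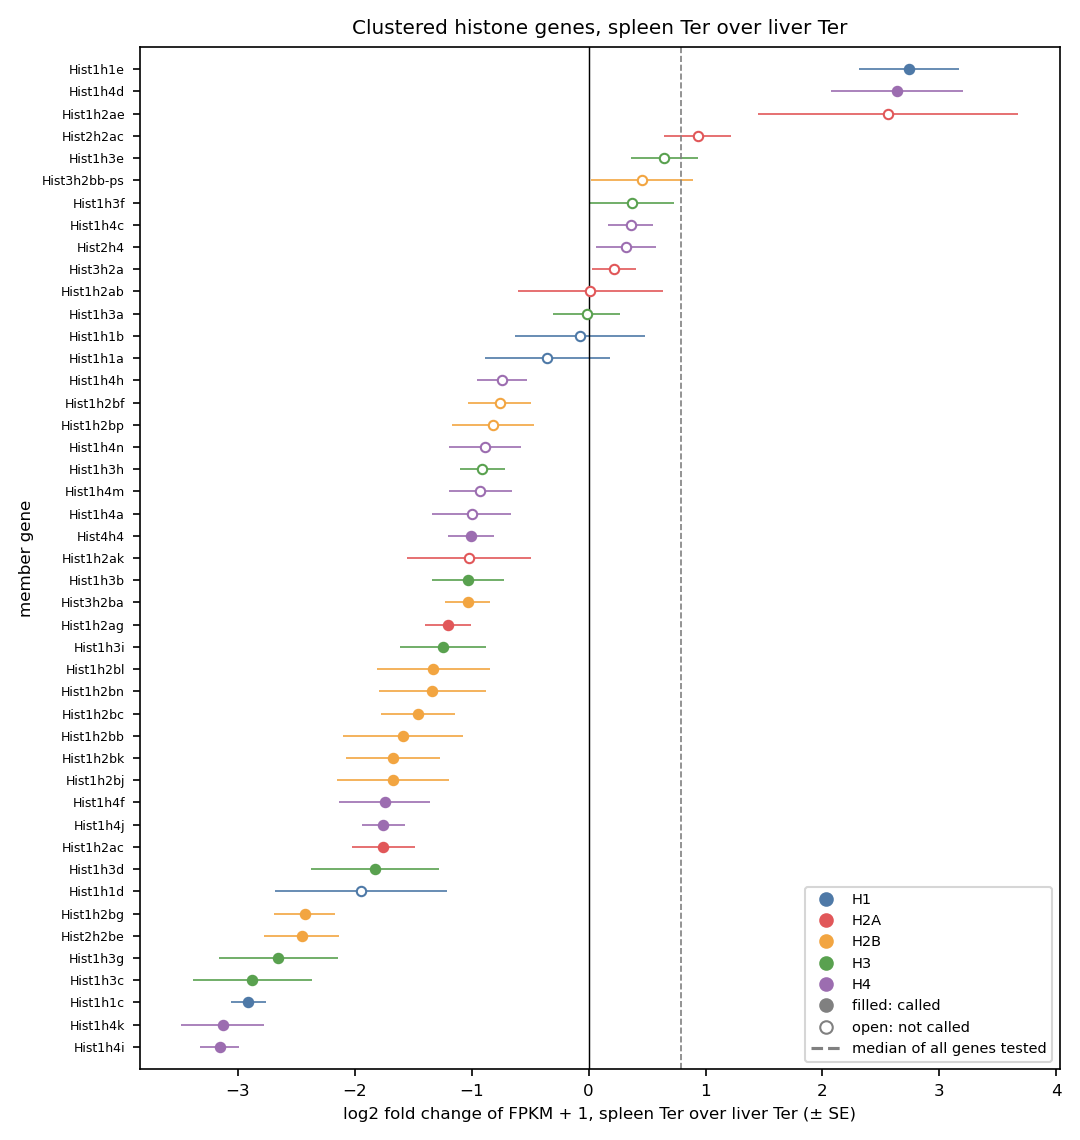
Log2 fold change of spleen Ter over liver Ter for the 45 members tested, on the log2(FPKM + 1) scale with standard errors from limma, ordered by size, coloured by class, filled where called and with a dashed line at the median of all genes tested (0.79). Hist1h1e and Hist1h4d lie highest at 2.74 and 2.64, Hist1h4i lies lowest at -3.16, and 22 members are called lower.

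Hist1h4d, Hist1h1e and Hist1h2ae, chosen as a trio after their values were seen, together held 46.3% of the spleen Ter sum, against 2.12% in liver Ter, 5.46% in MEP-labelled and 2.47% in CMP-labelled cells. In spleen Ter library A they held 52.8% and in B 30.8%. Without them the spleen Ter sum was 236 and 144 FPKM, against 788 and 816 FPKM in liver Ter. The MEP-labelled libraries then had 101 and 116 FPKM and the CMP-labelled libraries 169 and 144 FPKM. They lie within 52042 bases of the proximal block, chr13:23570517-23622558, with 5 other members between them. Those 5 summed to 8.80 and 6.34 FPKM in spleen Ter, against 32.7 and 37.7 FPKM in liver Ter, while the trio summed to 264 and 64.2 FPKM in spleen Ter, against 17.9 and 16.9 FPKM in liver Ter. Hist1h2bg, whose start lies 176 bases from that of Hist1h2ae on the other strand, was the highest of the 5 in spleen Ter (4.16 and 3.60 FPKM). Hist1h1e overlaps the annotated span of Hist1h2be on the same strand, and Hist1h2be itself had 0.772 and 1.70 FPKM in spleen Ter. For all 3 genes of the trio the recovered counts fitted a gene length shorter than that in M21, at 393 against 1138 bases for Hist1h4d, 748 against 1930 bases for Hist1h1e and 460 against 704 bases for Hist1h2ae. The same held for 16 members in all, and their FPKM stands on the shorter length.

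**Figure D4:**
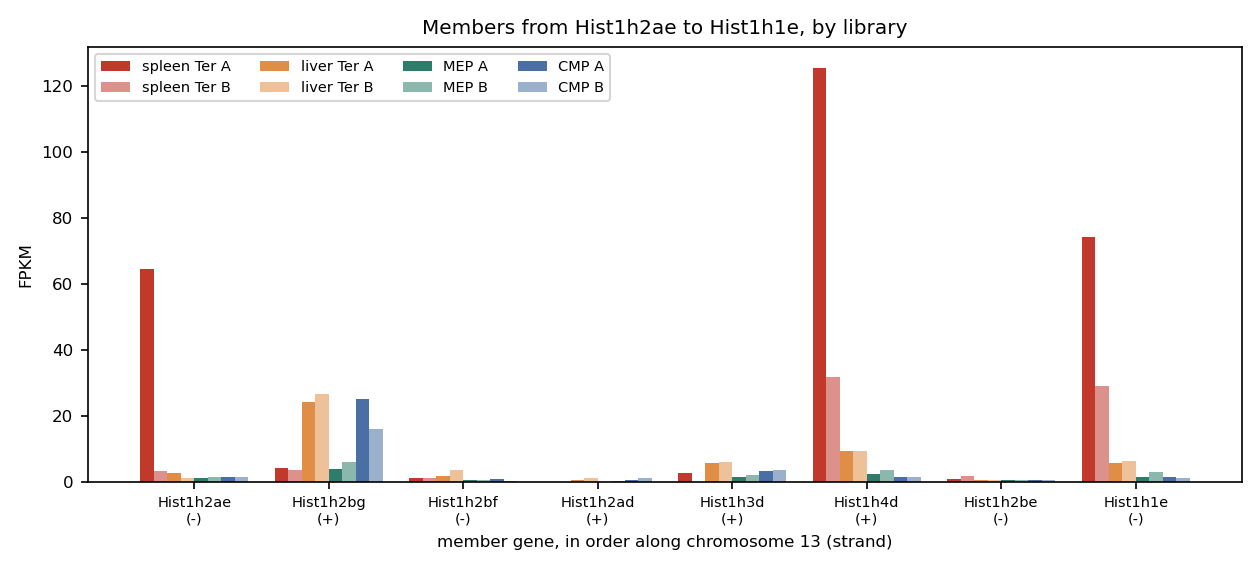
FPKM by library (bars, linear axis) of the 8 members in the stretch that starts with Hist1h2ae and ends with Hist1h1e, in their order along the chromosome with their strand, for spleen Ter, liver Ter, MEP-labelled and CMP-labelled cells. Hist1h2ae, Hist1h4d and Hist1h1e reach 64.3, 125 and 74.2 FPKM in spleen Ter library A, while the members between them stay at or below 4.16 FPKM there.

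The 2 spleen Ter libraries differed more over the members than those of any other group. Of 28 members with at least 20 fragments in spleen Ter, 16 were at least 2-fold higher in library A and 1 in B. Over all 13568 genes with as many fragments the balance was the other way, with 8.38% higher in A and 36.4% higher in B. In liver Ter, MEP-labelled and CMP-labelled cells 1 or 2 members differed by as much in each direction. Across members, Spearman's rho between the libraries of a group, given as a description, was 0.77 in spleen Ter cells, 0.97 in liver Ter, 0.94 in MEP-labelled and 0.90 in CMP-labelled cells (n = 65 members, which share a library).

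Against both marrow groups Hist1h4d and Hist1h1e were again the members with the largest rises in spleen Ter, and few members fell. Relative to MEP-labelled cells 9 of 45 members rose and 1 fell, beside 23.1% and 19.4% of all genes tested. Relative to CMP-labelled cells 9 rose and 3 fell, beside 14% and 28.2% of all genes tested. The median log2 fold change over the members was 0.26 and 0.07 in the 2 comparisons, which share the spleen Ter libraries. Hist1h4d, at 125 and 31.8 FPKM in spleen Ter, had 2.48 and 3.42 FPKM in MEP-labelled and 1.39 and 1.33 FPKM in CMP-labelled cells. Its log2 fold changes were 4.04 (SE 0.56, limma adjusted p = 0.0011) and 4.77 (SE 0.56, limma adjusted p = 0.00056). Hist1h1e, at 74.2 and 29.0 FPKM in spleen Ter, had 1.52 and 2.80 FPKM in MEP-labelled and 1.37 and 1.20 FPKM in CMP-labelled cells, with log2 fold changes of 3.94 and 4.38. Hist1h2bc had 56.7 and 27.1 FPKM in spleen Ter against 6.46 and 5.41 FPKM in MEP-labelled cells (log2 fold change 2.54, limma adjusted p = 0.00067). Hist3h2ba had 8.84 and 10.2 FPKM in spleen Ter against 1.67 and 2.06 FPKM in CMP-labelled cells (log2 fold change 1.88, limma adjusted p = 0.00032). For both genes the groups did not overlap.

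The falls in spleen Ter were fewer. The single fall against MEP-labelled cells was in Hist1h3c, with 2.03 and 0 FPKM in spleen Ter against 3.16 and 5.50 FPKM in MEP-labelled cells (log2 fold change -1.58, limma adjusted p = 0.0345), and it lost its call in 10 of the other settings. Against CMP-labelled cells Hist1h2bg fell, with 4.16 and 3.60 FPKM in spleen Ter and 24.9 and 15.9 FPKM in CMP-labelled cells (log2 fold change -2.10, limma adjusted p = 0.00068). Hist2h2be and the H2A gene Hist1h2ag also fell (log2 fold changes of -1.16 and -1.05), at levels of at most 1.09 and 0.409 FPKM in spleen Ter against at most 2.84 and 1.55 FPKM in CMP-labelled cells. Hist1h1c, the leading member in most columns, differed from MEP-labelled and CMP-labelled cells by log2 fold changes of 0.61 and 0.83 and was not called. The counts depended on spleen Ter library A, without which the balance of calls moved towards lower members in both comparisons. Whether the calls over all genes tested moved in the same way is not shown here.

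In liver Ter every called member was higher than in the marrow groups. Against MEP-labelled cells 20 of 45 members rose and none fell, while 8.66% of all genes tested rose and 33.3% fell. At an unadjusted p under 0.05 the members gave 33 higher and 0 lower, and limma voom on the recovered fragments gave 22 and 0. Against CMP-labelled cells 25 rose and none fell, while 6.92% of all genes tested rose and 52.9% fell; both the unadjusted p (25 and 0) and voom (20 and 0) also gave no lower member. Median log2 fold changes over the members were 1.26 and 1.11, beside -0.54 and -1.12 over all genes. Of the 45 members 44 and 42 were higher in liver Ter. Some members, such as Hist1h4j, Hist1h3b and Hist4h4, reached 1 FPKM in 2 libraries only with those of liver Ter. Their entry into the test favoured a higher level there, and the counts include them. The 2 comparisons share the liver Ter libraries. Rises were found in every class: 3 H1, 2 H2A, 8 H2B, 1 H3 and 6 H4 genes against MEP-labelled cells, and 2 H1, 2 H2A, 6 H2B, 5 H3 and 10 H4 genes against CMP-labelled cells. The lower count without liver Ter library A against MEP-labelled cells was 13, and without liver Ter library B or CMP library B against CMP-labelled cells it was 15 or 16. Scaling by median of ratios, which brought the median of all genes to 0.00 and -0.01, gave 40 and 43 members. For the unadjusted p, voom and these other settings, the shares of all genes are not shown here.

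Hist1h2bc had the largest rise against MEP-labelled cells and Hist1h1c against CMP-labelled cells. Hist1h1c had 371 and 378 FPKM in liver Ter against 31.8 and 31.9 FPKM in MEP-labelled and 31.2 and 23.5 FPKM in CMP-labelled cells. Its log2 fold changes were 3.52 and 3.74 (SE 0.15 each, limma adjusted p = 8.7e-06 and 1.1e-05). Hist1h2bc had 106 and 113 FPKM in liver Ter against 6.46 and 5.41 FPKM in MEP-labelled cells, a log2 fold change of 3.999 (SE 0.32). Hist3h2ba had 23.3 and 18.0 FPKM in liver Ter against 0.992 and 1.05 FPKM in MEP-labelled and 1.67 and 2.06 FPKM in CMP-labelled cells, with log2 fold changes of 3.41 and 2.91. For each of these genes the liver Ter libraries lay far above all 4 marrow libraries. The H4 gene Hist1h4m had 52 and 33 fragments in liver Ter and 0 fragments in all 4 marrow libraries. Its level in liver Ter was at least 13.7-fold higher than in MEP-labelled and at least 8.64-fold higher than in CMP-labelled cells, taking a floor of 3 fragments per library. Since 89.8% of the 50-base runs of Hist1h4m occur in other genes, its zeros and these bounds depend on how the authors' counting treated shared reads, which was not tested. Hist1h4d and Hist1h1e were also higher in liver Ter than in CMP-labelled cells (log2 fold changes of 2.14 and 1.64), though both stood higher still in spleen Ter.

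Between the marrow groups the members differed little. In MEP-labelled relative to CMP-labelled cells 0 rose and 2 fell of 45, beside 7.32% and 24.2% of all genes tested, and the medians were -0.08 over the members and -0.41 over all genes. An unadjusted p under 0.05 gave 1 higher and 6 lower, and voom 0 higher and 4 lower, without shares over all genes beside them. Both falls were in H2B genes of the proximal block. Hist1h2bc had 6.46 and 5.41 FPKM in MEP-labelled against 28.6 and 26.8 FPKM in CMP-labelled cells (log2 fold change -2.05, limma adjusted p = 0.0025), a call lost under median-of-ratios scaling (log2 fold change -1.33, limma adjusted p = 0.0587). Hist1h2bg had 3.92 and 5.85 FPKM in MEP-labelled against 24.9 and 15.9 FPKM in CMP-labelled cells (log2 fold change -1.85, limma adjusted p = 0.0018). The ranges did not overlap for either gene.

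In HSC and CLP many more members were expressed than in control spleen cells, on the deposited means alone and without a test. HSC were at least 2-fold higher than the control in 35 of the 56 members with at least 1 FPKM in either column and lower in none, beside 16.2% and 10.5% of all genes. CLP were higher in 44 of 58 and lower in none, beside 17% and 11.1% of all genes. Median log2 ratios of log2(FPKM + 1) were 1.38 and 1.60 over the members, against 0.12 and 0.14 over all genes, and both ratios share the control column. Hist1h3c had 12.7 FPKM in HSC and 13.1 FPKM in CLP, against 0.146 FPKM in the control. The H2A gene Hist1h2ap had 11.6 FPKM in HSC and 30.3 FPKM in CLP, against 0.764 FPKM in the control, and its near copy Hist1h2ao 10.6 FPKM in HSC and 25.4 FPKM in CLP, against 0.933 FPKM in the control. The most abundant gene was close in all 3 columns: Hist1h1c had 48.9 FPKM in HSC and 41.8 FPKM in CLP, against 48.0 FPKM in the control. Hist3h2ba was likewise close, at 9.86 FPKM in HSC, 13.2 FPKM in CLP and 10.2 FPKM in the control. Hist1h2bc had 42.5 FPKM in HSC and 39.5 FPKM in CLP, against 10.9 FPKM in the control. These columns also differed in other cells' markers. B cell sums were 562 FPKM in HSC, 886 FPKM in CLP and 2114 FPKM in the control. Neutrophil sums were 11455 FPKM in HSC, 15320 FPKM in CLP and 825 FPKM in the control. Macrophage and monocyte sums were 464, 422 and 78.6 FPKM in the same order, and lymphoid progenitor sums 576, 1042 and 93.6 FPKM. Stem cell markers summed to 119, 46.1 and 105 FPKM, with 7, 6 and 1 of 8 at 1 FPKM or more. The part of these other cells was not tested.

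HSC relative to CLP were at least 2-fold higher in 1 and lower in 7 of 59 members, beside 3.09% and 2.45% of all genes. The 1 higher and 4 of the lower members, Hist1h2ap included, are among 14 that share nearly all their sequence with other genes. The values of these 14 are uncertain, as set out below. Of the 49 compared members outside that set, 0 were higher and 3 lower. Hist1h1a, the linker histone H1.1 gene, had 9.003 FPKM in HSC against 26.7 FPKM in CLP. Hist1h3g had 4.30 FPKM in HSC against 12.3 FPKM in CLP, and Hist1h2ap was also lower (log2 ratio -1.31). The single gene higher in HSC was Hist2h2aa1, at 11.2 FPKM in HSC and 0.0354 FPKM in CLP, and listed at 0 in the control. It is an H2A gene with a near-identical copy, so its level is uncertain.

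Some members share sequence with other genes. In 14 members at least 90% of the 50-base runs occur also in another gene. These 14 held 13.1% of the sum in HSC, 15.4% in CLP and 3.98% in the control. Within the other set they held 0.234% of the sum in spleen Ter cells, 0.527% in liver Ter, 1.62% in MEP-labelled and 1.63% in CMP-labelled cells. Hist1h2ap, Hist1h2ao and Hist2h2aa1, all H2A genes, are among them. Values of these 14 are uncertain wherever reads were shared out between copies, and with them the H2A shares in HSC and CLP. In all, 26 members overlap another annotated gene, 19 of them on the opposite strand only, and whether the counting used strand is not given in the sources used here.

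Many H2A and H2B genes stand in divergent pairs, and 13 H2A-H2B pairs with starts 173 to 306 bases apart were found. Their partners were often at unequal levels. In liver Ter all 10 pairs with at least 1 FPKM in either partner were over 2-fold apart, as were 6 of 7 in spleen Ter, 6 of 6 in MEP-labelled and 5 of 7 in CMP-labelled cells. In HSC 6 of 12, in CLP 9 of 12 and in the control 5 of 7 were. In liver Ter Hist1h2bc had a mean of 109.65 FPKM against 6.54 FPKM of its partner Hist1h2ac, and Hist1h2bg 25.3 FPKM against 1.91 FPKM of Hist1h2ae. In spleen Ter the order of that second pair was the reverse, with 3.88 FPKM for Hist1h2bg and 33.8 FPKM for Hist1h2ae.

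The 3′ ends of the members also differed. A poly(A) signal (AATAAA or ATTAAA) stood in the last 40 bases of the annotated transcripts of 17 members, 13 of which have a stem-loop as well. These 17 held 32.8% of the sum in spleen Ter cells, 64.1% in liver Ter, 45.0% in MEP-labelled and 36.0% in CMP-labelled cells, and 27.6% in HSC, 21.1% in CLP and 49.7% in the control. Most of the liver Ter share came from Hist1h1c and Hist1h4i, with 45.7% and 12.2% of the sum. Of the 12 among the 17 that were tested, 6 fell and none rose in spleen Ter relative to liver Ter. That share was close to the 22 of 45 over all members tested and above the 11.6% over all genes. In liver Ter 9 of the 12 rose relative to each marrow group, beside 8.66% (MEP-labelled) and 6.92% (CMP-labelled) of all genes tested. A list of 6 members reported to give polyadenylated mRNA in human differentiated cells (Hist1h1c, Hist1h2bc, Hist2h2be, Hist1h2ac, Hist3h2a and Hist4h4) held 27.6% of the spleen Ter and 61.5% of the liver Ter sum. Hist1h1c alone held 13.8% of the spleen Ter and 45.7% of the liver Ter sum. All 6 members of the list rose in liver Ter relative to MEP-labelled and to CMP-labelled cells, beside the same 8.66% and 6.92%. Of these, Hist4h4 reached 1 FPKM in 2 libraries only with those of liver Ter, so its entry into the test favoured a rise there. In spleen Ter relative to liver Ter 5 of them fell, beside the same 11.6%. Hist2h2be had 1.09 and 0.0787 FPKM in spleen Ter against 7.04 and 7.42 FPKM in liver Ter, and Hist1h2ac had 0.834 and 1.59 FPKM in spleen Ter against 4.93 and 8.15 FPKM in liver Ter. Hist4h4 had 1.34 and 0.624 FPKM in spleen Ter against 2.85 and 2.97 FPKM in liver Ter, at the 2-fold line (log2 fold change -1.003). The 1 that was not called, Hist3h2a, had 3.64 and 4.84 FPKM in spleen Ter against 3.64 and 3.32 FPKM in liver Ter. The labels name a TruSeq kit and total RNA as input but not whether poly(A) RNA was selected, so how far stem-loop mRNAs were captured at all was not tested.

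Genes of DNA replication, which are active in the same phase of the cycle, had another order of sums across the groups. A list of 26 such genes, among them the Mcm helicase subunits and Pcna, summed to 226 and 167 FPKM in spleen Ter cells, 1205 and 1219 FPKM in liver Ter, 795 and 882 FPKM in MEP-labelled and 1340.5 and 1277 FPKM in CMP-labelled cells. Spleen Ter had the lowest replication sum of the 4 groups and the second highest histone sum. The histone sum was 1.81 times the replication sum in spleen Ter (2.21 in library A and 1.25 in B), 0.676 times in liver Ter, 0.137 times in MEP-labelled and 0.123 times in CMP-labelled cells. In the other set the ratio was 0.368 in HSC and 0.384 in CLP, against 0.577 in the control. Of the 26 replication genes 23 fell in spleen Ter relative to liver Ter, 20 relative to MEP-labelled and all 26 relative to CMP-labelled cells, and none rose. Of all genes tested 11.6%, 19.4% and 28.2% fell in these comparisons, and 42.8%, 23.1% and 14% rose. In liver Ter 3 rose and 1 fell relative to MEP-labelled cells, beside 8.66% and 33.3% of all genes tested. Relative to CMP-labelled cells 2 rose and 5 fell, beside 6.92% and 52.9% of all genes tested. FPKM sums set short histone genes against longer ones per unit length, and cell cycle stage and cell type cannot be told apart in these ratios.

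**Figure D5:**
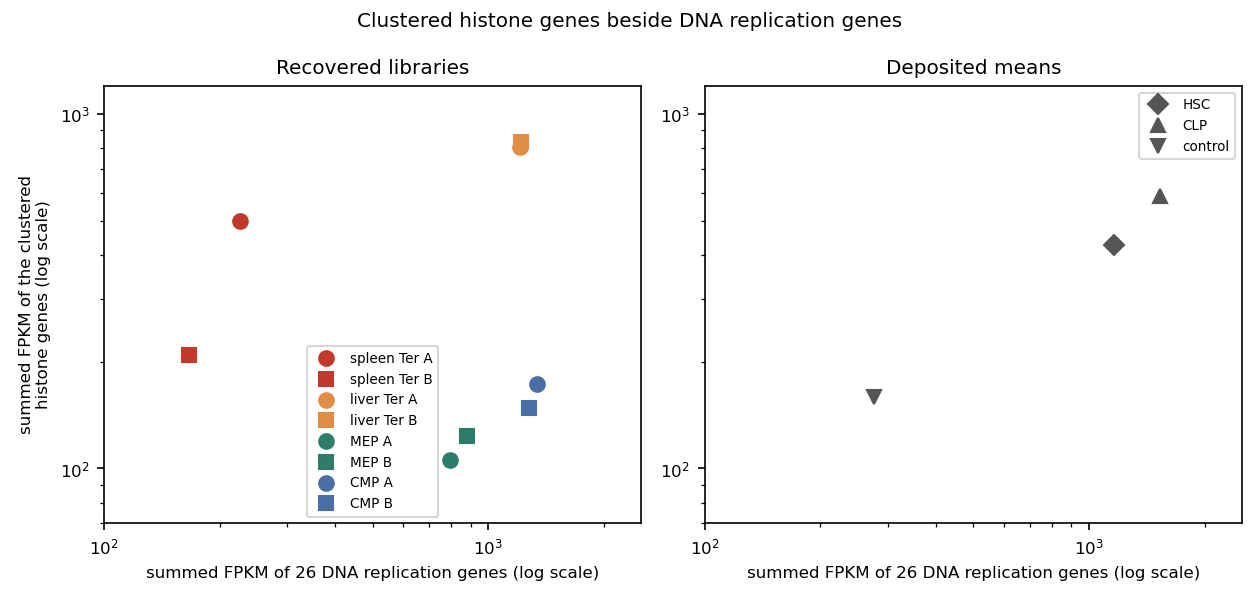
Summed FPKM of the clustered histone genes (vertical axis) against that of 26 DNA replication genes (horizontal axis), both on log axes, with recovered libraries for spleen Ter, liver Ter, MEP-labelled and CMP-labelled cells and deposited means for HSC, CLP and control. The CMP-labelled and liver Ter libraries have nearly the same replication sums but histone sums of 148 to 173 FPKM and 806 to 833 FPKM.

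Genes that act on histone mRNA and protein were read from lists. Of 17 stem-loop mRNA processing and decay factors tested, 6 rose and 3 fell in spleen Ter relative to liver Ter (median log2 fold change -0.07), beside 42.8% and 11.6% of all genes tested. Lsm1, of the decay complex that binds oligouridylated histone mRNA, had 9.95 and 17.65 FPKM in spleen Ter against 2.64 and 2.18 FPKM in liver Ter. The endonuclease Cpsf3, which cuts histone pre-mRNA past the stem-loop, had 18.2 and 41.55 FPKM in spleen Ter against 6.17 and 5.70 FPKM in liver Ter. Both rose, with log2 fold changes of 2.07 and 2.04, whereas the scaffold gene Sympk fell (log2 fold change -1.77). Slbp itself had 14.3 and 15.8 FPKM in spleen Ter against 29.3 and 30.0 FPKM in liver Ter, and its log2 fold change of -0.94 fell short of the 2-fold line. In spleen Ter 3 rose and 4 fell relative to MEP-labelled cells, beside 23.1% and 19.4% of all genes tested. Relative to CMP-labelled cells 1 rose and 8 fell, beside 14% and 28.2% of all genes tested. In liver Ter none rose, 3 fell relative to MEP-labelled and 8 relative to CMP-labelled cells, beside 33.3% and 52.9% of all genes tested that fell.

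Of 22 histone chaperone and import genes tested, 3 rose and 8 fell in spleen Ter relative to liver Ter (median log2 fold change -0.36), beside the same 42.8% and 11.6% of all genes. The largest falls were in Chaf1a, Mcm2 and Asf1b. Chaf1a, the large subunit of chromatin assembly factor 1, had 1.12 FPKM in each spleen Ter library, against 19.999 and 20.3 FPKM in liver Ter (log2 fold change -3.32). Mcm2, a subunit of the replicative helicase that also binds histones, fell by 2.96 on the log2 scale. Asf1b, a chaperone of H3 and H4, had 10.7 and 6.20 FPKM in spleen Ter against 66.0 and 66.9 FPKM in liver Ter (log2 fold change -2.88). Npm1, an abundant nucleolar chaperone, rose (log2 fold change 1.84). In spleen Ter 15 of the 22 fell relative to CMP-labelled cells and none rose, beside 28.2% and 14% of all genes tested.

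Replacement histones, whose genes lie outside the clusters, were also listed. Of 11 tested, 3 rose and 4 fell in spleen Ter relative to liver Ter, beside 42.8% and 11.6% of all genes tested. H2afy, which encodes macroH2A, had 29.1 and 43.1 FPKM in spleen Ter against 2.21 and 2.45 FPKM in liver Ter (log2 fold change 3.45). H2afx, the variant phosphorylated at DNA breaks, had 38.6 and 16.3 FPKM in spleen Ter against 213 and 204 FPKM in liver Ter (log2 fold change -3.00), and H3f3a, which encodes H3.3, fell as well (log2 fold change -1.89). The second H3.3 gene, H3f3b, was not recovered by library in spleen Ter cells, where its mean was 662 FPKM against 142 FPKM in liver Ter. H2afz was not called (log2 fold change 0.23).

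Over the 6 tested comparisons 10 of the 45 members were called in none, 7 in 1, 8 in 2, 12 in 3, 6 in 4, 2 in 5 and none in all 6. The comparisons share libraries. The same division was not made over all genes tested, so whether the members differ from them in this was not tested.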

How the data were processed

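RNA of 14 samples in 7 groups of sorted cells was sequenced. Per the labels' protocols the libraries were made with a TruSeq kit from total RNA, and the submitters' processing notes name the build mm10; what aligned and counted the reads, and with which annotation, is not given in the sources used here. For each gene and group the authors deposited 1 FPKM value, a mean of the group's 2 samples; its unit is taken from the values themselves. The planned test assumed values per library. Of 49588 lines, 2 had no gene and 3 were repeats. IDs were matched to GENCODE M21 for 49324 of 49583 genes, and 2 members of M21 are not analysed here.

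In 4 columns (both Ter groups, MEP and CMP) each mean is an average of 2 whole fragment counts over gene length and depth. With the depths found, 81.5% to 86.5% of values between 0.5 and 5 FPKM gave whole fragments, and at most 0.0168% with depths moved by 1 in 1000. This recovered 13636 of 14049 genes with at least 1 FPKM (97.1%), of which 2330 needed a searched length, and 65 of 68 members. The depths of libraries A and B were 15107437.5 and 14545383 fragments for spleen Ter, 28537889 and 17537636 for liver Ter, 24621750.5 and 20079202 for MEP, and 14636912.5 and 13413530.5 for CMP.

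The 12830 genes that reached 1 FPKM in 2 libraries or more entered a test by limma (version 3.58.1, under R 4.3.3) on log2(FPKM + 1), in 1 fit over the 8 libraries. A gene could enter through 1 group alone, which favours a higher level in that group. Calls needed a Benjamini-Hochberg adjusted p under 0.05 and 2-fold. Fold changes on this scale understate the change of low genes. The fit had 4 residual degrees of freedom and 2.6 from the prior, and pools the spread of the 4 groups although spleen Ter varied most. The fit was tested on simulated data. The recovery, sums and figures used Python 3.11.15 with numpy 2.4.6, pandas 2.3.3, scipy 1.17.1, numba 0.67.0 and matplotlib 3.10.9. Alternatives were a pseudocount of 0.1, filters of 5 FPKM and none, median-of-ratios scaling, totals without globins, leaving out each library, sums without H1, without the most abundant member or as a share of protein-coding FPKM, and limma voom, which was added after seeing the data. Intervals from fragment counts would cover counting error only and were not used.

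Values are given for the 12 most abundant members, the 3 members with the largest change in each direction per comparison, the members with reported polyadenylated mRNA, the leading genes of 3 related lists and the genes most like the histone sum. The members, lists and this rule were chosen with earlier results of these data known.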

Additional observations from a re-analysis of the deposited data

How the results depend on the processing

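Direction was checked for the sum ratios, for Hist1h2ae and for the members with the largest called or 2-fold changes per comparison. None of these reversed. The other named members were not checked. Without spleen Ter library A the balance of calls moved towards lower members for spleen Ter over CMP and spleen Ter over MEP. With it, 9 members were higher and 3 lower over CMP, and 9 and 1 over MEP. Shares of all genes called under the alternatives are not given here, so member counts under them cannot be set beside all genes. Of 144 alternative values for total counts and sums 118 stayed within 1.5 times or the replicate spread and 26 moved, and of 389 for single genes 366 kept their side of the threshold, 17 lost a call and 6 gained one. Against 10 members called for spleen Ter over MEP, a pseudocount of 0.1 gave 17, voom 16 and leaving out each library 8 to 20. For spleen Ter over CMP (12 members) a filter of 5 FPKM gave 6 and leaving out each library 11 to 20. For liver Ter over MEP (20) the filter of 5 FPKM gave 13, median of ratios 40, totals without globins 37 and leaving out each library 13 to 28. For liver Ter over CMP (25) the filter gave 14, median of ratios 43 and leaving out each library 15 to 30. For MEP over CMP (2) a pseudocount of 0.1 gave 4, median of ratios 1, voom 4 and leaving out each library 2 to 3. For spleen Ter over liver Ter (24) the count ran from 16 to 36. HSC over control (35) gave 22 with the filter of 5 FPKM, and HSC over CLP (8) gave 16 with a pseudocount of 0.1. A stricter filter tests fewer members; for the others the cause was not tested.

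The sum of liver Ter over MEP (7.16) was 5.76 without H1 genes, 5.38 without Hist1h1c and 16.7 as a share of protein-coding FPKM other than globins. Liver Ter over CMP (5.11) was 3.40, 3.34 and 8.08 in the same settings, and MEP over CMP (0.714) was 0.591 without H1 genes and 0.484 as that share. Spleen Ter over liver Ter (0.432) ran from 0.254 without spleen Ter library A to 0.686. Median-of-ratios scaling moved the median of all genes from 0.79 to 0.08 for spleen Ter over liver Ter, and that of the members from -1.02 to -1.80. Under it Hist1h4d had a log2 fold change of 1.45 (limma adjusted p = 0.111) and Hist1h2bc for MEP over CMP one of -1.33 (limma adjusted p = 0.0587). Hist1h2ae gained a call over liver Ter without spleen Ter library B (log2 fold change 4.53). With a library left out, the lone library of that group is assumed to vary like the others. No paired analysis was possible because the columns carry no replicate numbers. Depth limits low members: 20 were not tested for low values.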

Other observations

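Among the 8878 genes compared over both Ter groups, MEP and CMP, the gene whose means were most like the histone sum was Car2, a carbonic anhydrase of red cells and other tissues, with Pearson's r = 0.9996 between values of log2(FPKM + 1) (n = 4 columns, a description only). Car2 had means of 156 FPKM in spleen Ter cells, 1551 FPKM in liver Ter cells, 7.01 in MEP-labelled and 15.9 in CMP-labelled cells. The next were Gpx4, Ptp4a3, Dnajb2 and Gpx1, the glutathione peroxidase 1 gene, which had 1630 FPKM in spleen Ter and 3468 FPKM in liver Ter. In all, 31 genes reached r = 0.99. Over HSC, CLP and control, 1214 of 9050 genes reached it with n = 3 columns, led by Cchcr1, Gpsm2, Bora, Taf9 and Gm2962. Bora, a mitotic cofactor of the Aurora kinase, had 10.8 FPKM in HSC and 16.7 FPKM in CLP, against 2.41 FPKM in the control.

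Over all 68 members the rank order of levels, given as a description with Spearman's rho, was closest between MEP and CMP (0.92) in the first set and between HSC and CLP (0.87) in the other. It was 0.77 for spleen Ter and liver Ter, 0.64 for HSC and control and 0.68 for CLP and control.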
